A study of Mus musculus with 7 samples.

Results

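The Gpnmb+ macrophages described here are 751 cells among 40158 cells kept from 7 droplet single-cell libraries of mouse hearts. They were chosen by counts of unique molecular identifiers (UMIs, 1 per captured transcript). A member had at least 10 UMIs of C1qa, C1qb and C1qc together, the complement genes that mark tissue macrophages. It had at least 1 UMI of Gpnmb. It had at most 1 of the 4 resident macrophage genes Lyve1, Timd4, Folr2 and Cbr2 detected, and under 1% of its UMIs came from the neutrophil genes S100a8 and S100a9. Cells that met every other condition but had no Gpnmb UMI, 3330 in all, are called Gpnmb=0 macrophages and served as the comparison within each library. Since Gpnmb and the other genes of the rule chose the cells, their values are given as a description without a test.

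GPNMB is a membrane glycoprotein of late endosomes and lysosomes that macrophages make when they are loaded with lipid or with the remains of other cells. It belongs to a set of genes, with Trem2, Spp1, Fabp5, Lgals3 and lysosomal proteases, that is known from macrophages of fatty tissue, atherosclerotic plaques and injured organs. Such cells take up dead cells and lipid, break cholesterol esters down in lysosomes and store the excess in droplets. In the injured heart, macrophages clear dying heart muscle cells by efferocytosis, the engulfment of apoptotic cells, for which MERTK is a main receptor.

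Mice of 8 weeks or of the age labelled P1, in the newborn period, had either myocardial infarction (MI) or sham surgery before their hearts were taken. All wild-type (WT) animals were C57BL6/J mice, and the other animals were labelled MerTK KO. WT P1 MI had 2 libraries, and WT 8 week MI, Mertk KO P1 MI, WT 8 week sham, Mertk KO P1 sham and WT P1 sham had 1 each. Hearts were digested, cells binding Annexin V were removed, and CD45+ leukocytes were recombined with the remaining cells at 2 to 1, so shares of all cells reflect that mixture. The labels give neither the time after surgery, nor the number of hearts per library, nor the part of Mertk that was deleted. Whether separate animals gave the 2 libraries of WT P1 MI is not stated either, so p-values measure only how far these samples differ, and that spread may be technical.

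Total UMIs per library ran between 7707724 in WT 8 week MI and 130847843 in WT P1 MI replicate 2, and the median UMIs per kept cell between 2152 in WT 8 week MI and 11408 in WT P1 MI replicate 1. WT 8 week MI was thus the shallowest library and the one with most members. Xist was at 0 CPM (UMIs scaled to the same total in every library) in the Gpnmb+ cells of both 8 week libraries and at 293 to 469.8 CPM in those of both WT P1 MI libraries and both P1 sham libraries, so the sex of the animals differed between libraries. Of the 8 Gpnmb+ cells of WT P1 MI replicate 1, 1 held 12700 haemoglobin UMIs and the others none. In the 21 pairs of libraries at most 41 kept barcodes were shared, and 2 of the 751 members had a barcode that also occurred in another library.

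Levels are CPM of the UMIs summed over all cells of a set in a library. Unless a library is named, 7 values follow the order WT 8 week MI, Mertk KO P1 MI, WT P1 MI replicate 1, WT P1 MI replicate 2, WT 8 week sham, Mertk KO P1 sham and WT P1 sham. Mertk, the gene named in the genotype, was at 32.7, 12.9, 57.7, 27.1, 63.9, 32.1 and 0 CPM in Gpnmb+ cells, against 32.1, 18.4, 61.1, 19.6, 54.3, 37.2 and 60.1 CPM in Gpnmb=0 cells. Transcripts of Mertk were therefore counted in both libraries labelled Mertk KO. A 3' tag outside the deleted part does not check a knockout, so the genotype labels were not checked by these counts.

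The members came mostly from the infarcted 8 week heart. They numbered 583, 20, 8, 54, 74, 8 and 4 cells, and the Gpnmb=0 macrophages 1148, 414, 35, 502, 1002, 95 and 134 cells. Gpnmb+ cells made up 33.7% of these C1q macrophages in WT 8 week MI (exact binomial interval 31.5 to 36.0%) and 6.88% in WT 8 week sham (5.44 to 8.56%). Among P1 hearts, Mertk KO P1 MI had a share of 4.61%, WT P1 MI replicate 1 had 18.6% of only 43 cells, and WT P1 MI replicate 2 had 9.71%. Mertk KO P1 sham had 7.77% and WT P1 sham had 2.90%. The share was highest in WT 8 week MI, and its interval overlapped that of WT P1 MI replicate 1 alone, which reached 33.4%. These intervals cover counting error only, and no test was made, since most groups had 1 library.

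A cell is more likely to show a Gpnmb UMI the more UMIs it has. Each cell was therefore also thinned to 1500 UMIs before the rule was applied, with shallower cells left out. Of the WT 8 week MI cells, 537 of 583 Gpnmb+ and 887 of 1148 Gpnmb=0 cells reached that depth, as did all Gpnmb+ cells of the other libraries. Gpnmb+ shares were then 28.3, 0.966, 0, 2.70, 1.33, 3.33 and 0%, in the order given above. The exact interval of the 0 of 44 cells in WT P1 MI replicate 1 reached 8.04%. Thinning can also hide resident genes, so cells that the rule left out at full depth could enter. WT P1 MI replicate 1 had 43 cells at full depth, for instance, so the shares before and after thinning have different denominators. At equal depth the share in WT 8 week MI stood clear of every other library's interval. The Gpnmb level over all C1q macrophages, which needs no threshold, was 545, 42.8, 35.6, 85.9, 21.4, 35.8 and 12.1 CPM and had the same library on top.

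**Figure D1:**
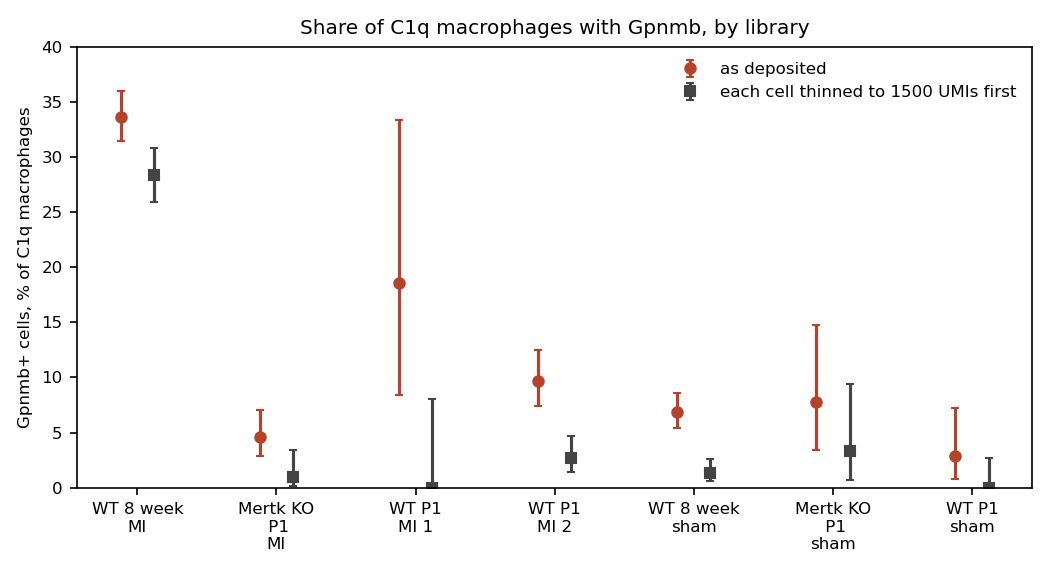
Share of Gpnmb+ cells among C1q macrophages in each library, in percent, as deposited (circles) and after each cell was thinned to 1500 UMIs (squares), with exact binomial 95% intervals for counting error. WT 8 week MI stands at 33.7% and 28.3%, and after thinning no other library exceeds 3.33%.

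Free RNA can put a UMI into a cell that does not make the gene. Among T cells, taken as cells with at least 2 Cd3e UMIs, the share with Gpnmb was 0 of 4 cells in WT 8 week MI, where 4 cells set no useful limit, and 0 to 1.47% in the other libraries at median depths of 5589 to 9126 UMIs. Gpnmb was also seen in 2 of 65 B cells of WT 8 week MI (3.08%, exact interval up to 10.7%), at 43.5 CPM and a median depth of 830.0 UMIs, and in 0 of its 23 endothelial cells. Fibroblasts had Gpnmb in 7.69% of 143 cells in WT 8 week MI and 10.6% of 1960 cells in WT 8 week sham, at median depths of 3117 and 9324 UMIs. In WT 8 week sham this fibroblast share was above the 6.88% of the macrophages, whereas the level was 13.4 CPM in fibroblasts and 21.4 CPM in the macrophages. Resident-marked macrophages, with at least 2 of the 4 resident genes and therefore outside the rule, held Gpnmb in 20.3% of 177 cells in WT 8 week MI and in 1.35 to 11.5% elsewhere.

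The cells carried the markers of macrophages. Csf1r, the receptor for the growth factor CSF1, was at 315 to 931 CPM in the Gpnmb+ cells of the 7 libraries and at 429 to 1001 CPM in the Gpnmb=0 cells. Adgre1, which encodes the F4/80 antigen, was at 208 to 527 CPM in Gpnmb+ cells and 221 to 580.2 CPM in Gpnmb=0 cells. Summed markers of T, B, NK and dendritic cells, neutrophils, fibroblasts, endothelial, mural, cardiac muscle and mast cells reached at most 377 CPM per class in the Gpnmb+ cells of WT 8 week MI and 2262 CPM in those of WT 8 week sham. In WT 8 week MI this was the B cell class, at 992 CPM in its Gpnmb=0 cells. In WT 8 week sham it was the fibroblast class, at 1001 CPM in its Gpnmb=0 cells. Members with at least 0.2% of their UMIs in the markers of another class numbered 43, 0, 1, 9, 21, 0 and 0, and each gene-wise test below was also run without such cells. Members among the presumed doublets, the cells with the highest doublet scores, numbered 14, 0, 1, 19, 25, 0 and 0.

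Of the 4 genes that name the cells, Gpnmb lies on chromosome 6 (49036546 to 49070929, plus strand), Spp1 on chromosome 5 (104435118 to 104441050, plus), Mmp12 on chromosome 9 (7344381 to 7369499, plus) and Ms4a7 on chromosome 19 (11321039 to 11336146, minus) of GRCm38. Gpnmb itself, which chose the cells, was at 1336, 781, 189.6, 599, 246, 337 and 216 CPM in members. Spp1, which encodes the secreted matrix and signalling protein osteopontin, was at 19617, 6623, 1755, 4148, 1236, 152 and 598 CPM in Gpnmb+ cells, against 10160.4, 173, 7.63, 164, 1101, 182 and 77.4 CPM in Gpnmb=0 cells. Mmp12, macrophage elastase, was at 778, 21.5, 24.7, 480.1, 34.8, 802 and 0 CPM in Gpnmb+ cells, against 133, 2.49, 17.2, 37.3, 10.6, 0.954 and 5.26 CPM in Gpnmb=0 cells. Ms4a7, a membrane protein of macrophages, was at 2934, 438, 346, 903, 168, 602 and 344 CPM in Gpnmb+ cells, against 2163, 231, 521, 748, 50.2, 402 and 625 CPM in Gpnmb=0 cells. Spp1 and Mmp12 were thus higher beside Gpnmb in 6 of 7 libraries and Ms4a7 in 5 of 7. For Mmp12 some sums rested on few cells. In Mertk KO P1 sham it was at 3713 CPM in the 2 cells with 5 or more Gpnmb UMIs and at 0 CPM in the other members. In WT P1 MI replicate 2, 1 member with 15530 UMIs had it at 17386 CPM. Mertk KO P1 sham, with 8 members, had no excess of Spp1.

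The test within libraries asked which genes accompany Gpnmb, with summed counts of Gpnmb+ and Gpnmb=0 cells as a pair in each library that had at least 10 cells of both kinds. Both 8 week libraries, Mertk KO P1 MI and WT P1 MI replicate 2 met this minimum. At an adjusted p under 0.05 in edgeR's quasi-likelihood test with library as a block, 43 of 9366 genes were higher in Gpnmb+ cells (0.459%) and 32 were lower (0.342%). In all 0.801% of the genes were called. Without WT 8 week MI 20 genes were called, without Mertk KO P1 MI 45, without WT P1 MI replicate 2 212 and without WT 8 week sham 49, so each library moved the count by over 1.5 times. Gpnmb+ cells were deeper than Gpnmb=0 cells, with medians of 2961, 10401, 13174, 15982, 17166, 11379 and 20633 UMIs against 2166, 8673, 13060, 10294, 14778, 9027 and 8884 UMIs. With Gpnmb=0 cells drawn to the same depths, 56 genes were higher and 24 lower.

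Genes of lipid uptake and storage were among those that rose. Fabp5, a fatty acid carrier of the cytoplasm, was at 1129, 2103, 1113, 1373, 956, 1171 and 713 CPM in Gpnmb+ cells, against 206, 461, 233, 404, 303, 189.8 and 81.2 CPM in Gpnmb=0 cells. The groups did not overlap for Fabp5, and in the 4 paired libraries it rose by 2.03 ± 0.14 on the log2 scale (approximate SE, adjusted p = 6.76e-05, edgeR). Plin2, the coat protein of lipid droplets, was at 1424, 1206, 462, 566, 389, 1107 and 165 CPM in Gpnmb+ cells, against 894, 570.3, 273, 277, 305, 431 and 307 CPM in Gpnmb=0 cells. It was higher in 6 of 7 libraries, with a log2 fold change of 0.80 ± 0.13 (adjusted p = 0.0194, edgeR). Trem2, a receptor for lipids and apoptotic cells, was higher in 7 of 7 libraries, at 485 to 1295 CPM in Gpnmb+ cells and 273 to 926 CPM in Gpnmb=0 cells, with a log2 fold change of 0.82 ± 0.11 (adjusted p = 0.00548, edgeR).

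Within the list for the lipid-associated macrophage program, 13 of 26 tested genes rose and none fell. Their median log2 fold change was 0.98, beside −0.01 over all genes tested. Without WT 8 week MI the count was 8, without Mertk KO P1 MI 12, without WT 8 week sham 15 and without WT P1 MI replicate 2 16. The list contains genes known from lipid-laden macrophages elsewhere, and Gpnmb is among the genes by which such cells are recognised, so the list is no independent measure of the choice of cells.

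Among 42 tested genes of cholesterol and lipid handling, 6 rose and none fell, with a median of 0.17. Those 6 were Fabp5, Plin2 and Acp5 together with 3 enzymes that work on cholesterol esters. Acp5, a phosphatase, is counted again in the list for osteoclasts below. Lipa, the lysosomal acid lipase that frees cholesterol from its esters, averaged 226 ± 65.1 CPM in Gpnmb+ cells and 113 ± 28.1 CPM in Gpnmb=0 cells (SD, n = 4 each). Its log2 fold change was 1.04 ± 0.12 (adjusted p = 0.00239, edgeR). Over all 7 libraries it was higher in 5 and lower in 2. A paired fit of all 7 gave a log2 fold change of 0.83 and did not call it (adjusted p = 0.0677, edgeR). Nceh1, a neutral cholesterol ester hydrolase, rose by 0.95 ± 0.13 (adjusted p = 0.00573, edgeR). Soat1, which esterifies cholesterol for storage, rose by 0.83 ± 0.13 (adjusted p = 0.0132, edgeR). Enzymes that free cholesterol and the enzyme that esterifies it were thus higher in the same set of cells. Abca1, which exports cholesterol, was not called, at 145 ± 25.9 CPM in Gpnmb+ cells and 137 ± 53.3 CPM in Gpnmb=0 cells (SD, n = 4 each; log2 fold change 0.26 ± 0.17, adjusted p = 0.789, edgeR). Only 1 gene of this list was called without WT 8 week MI, and 8 rose and 1 fell without WT P1 MI replicate 2. Lipa, Nceh1 and Soat1 were lost without WT 8 week MI, and Soat1 also without Mertk KO P1 MI.

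Of 42 tested lysosomal genes 10 were higher and none lower, with a median of 0.37. Over all genes tested 0.459% were higher and 0.342% lower, with a median of −0.01. With the rule and the sums both at 1500 UMIs per cell, 1 lysosomal gene was higher, against 4 of the lipid-associated list and 1 of cholesterol and lipid handling, with medians of 0.34, 0.85 and 0.33. Only WT 8 week MI, with 381 Gpnmb+ cells, and WT P1 MI replicate 2, with 12, met the minimum of 10 cells there. The lower counts thus mix equal depth with the loss of libraries. Ctsd, an aspartic protease of lysosomes, was at 5710.4, 2305, 3445, 1581, 2672, 3433 and 802 CPM in Gpnmb+ cells, against 2894, 1252, 1216, 526, 1343, 862 and 580.4 CPM in Gpnmb=0 cells. Ctsd was higher in every library, and in the 4 paired ones its log2 fold change was 1.13 ± 0.12 (adjusted p = 0.0014, edgeR). Ctsb, a cysteine protease, was at 13798, 2769, 5093, 2078, 2078, 5094 and 2317 CPM in Gpnmb+ cells, against 6642, 1384, 1716, 1068, 1089, 1601 and 1539 CPM in Gpnmb=0 cells. Its fold change was nearly the same in the 4 paired libraries, 1.01 ± 0.07 on the log2 scale (adjusted p = 6.76e-05, edgeR), although its level differed widely between them. Psap, the precursor of the saposins that help to degrade sphingolipids, rose by 1.01 ± 0.08 (adjusted p = 0.000183, edgeR).

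Atp6v0d2, a subunit of the proton pump that acidifies lysosomes in macrophages and osteoclasts, had the largest fold change of the named genes. It was at 38, 85.8, 181, 107, 18, 64.2 and 0 CPM in Gpnmb+ cells, against 2.58, 1.99, 0, 1.51, 0.884, 0 and 0.752 CPM in Gpnmb=0 cells. Its sum in Gpnmb+ cells was 0 in WT P1 sham alone, and the log2 fold change was 5.07 ± 0.33 (adjusted p = 5.39e-05, edgeR). Many members of other libraries lacked it too. In Mertk KO P1 MI it was at 533 CPM in the 2 cells with 5 or more Gpnmb UMIs. The 13 members with 1 and the 5 with 2 to 4 had 0 CPM. In Mertk KO P1 sham it was likewise seen only among the 2 cells with 5 or more, at 297 CPM. Cd63, a tetraspanin of late endosomes, rose by 1.44 ± 0.18 (adjusted p = 0.00399, edgeR) and Ctsk, a collagen-degrading protease of osteoclasts, by 3.63 ± 0.62 (adjusted p = 0.0234, edgeR). In Mertk KO P1 MI, Ctsk was at 480 CPM in the 2 cells with 5 or more Gpnmb UMIs and at 0 CPM in the other members. Together with Acp5, the tartrate-resistant acid phosphatase, Atp6v0d2 and Ctsk were the 3 of 5 tested genes of a list for osteoclasts and multinucleated cells that rose. That count was 1 without WT 8 week MI, 2 without Mertk KO P1 MI, 2 without WT 8 week sham and 1 with cells matched on depth. None of 9 tested lysosome regulators was called, and their median was 0.15. The count of lysosomal genes was 5 without WT 8 week MI, 7 without Mertk KO P1 MI, 10 without WT 8 week sham and 11 without WT P1 MI replicate 2.

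**Figure D2:**
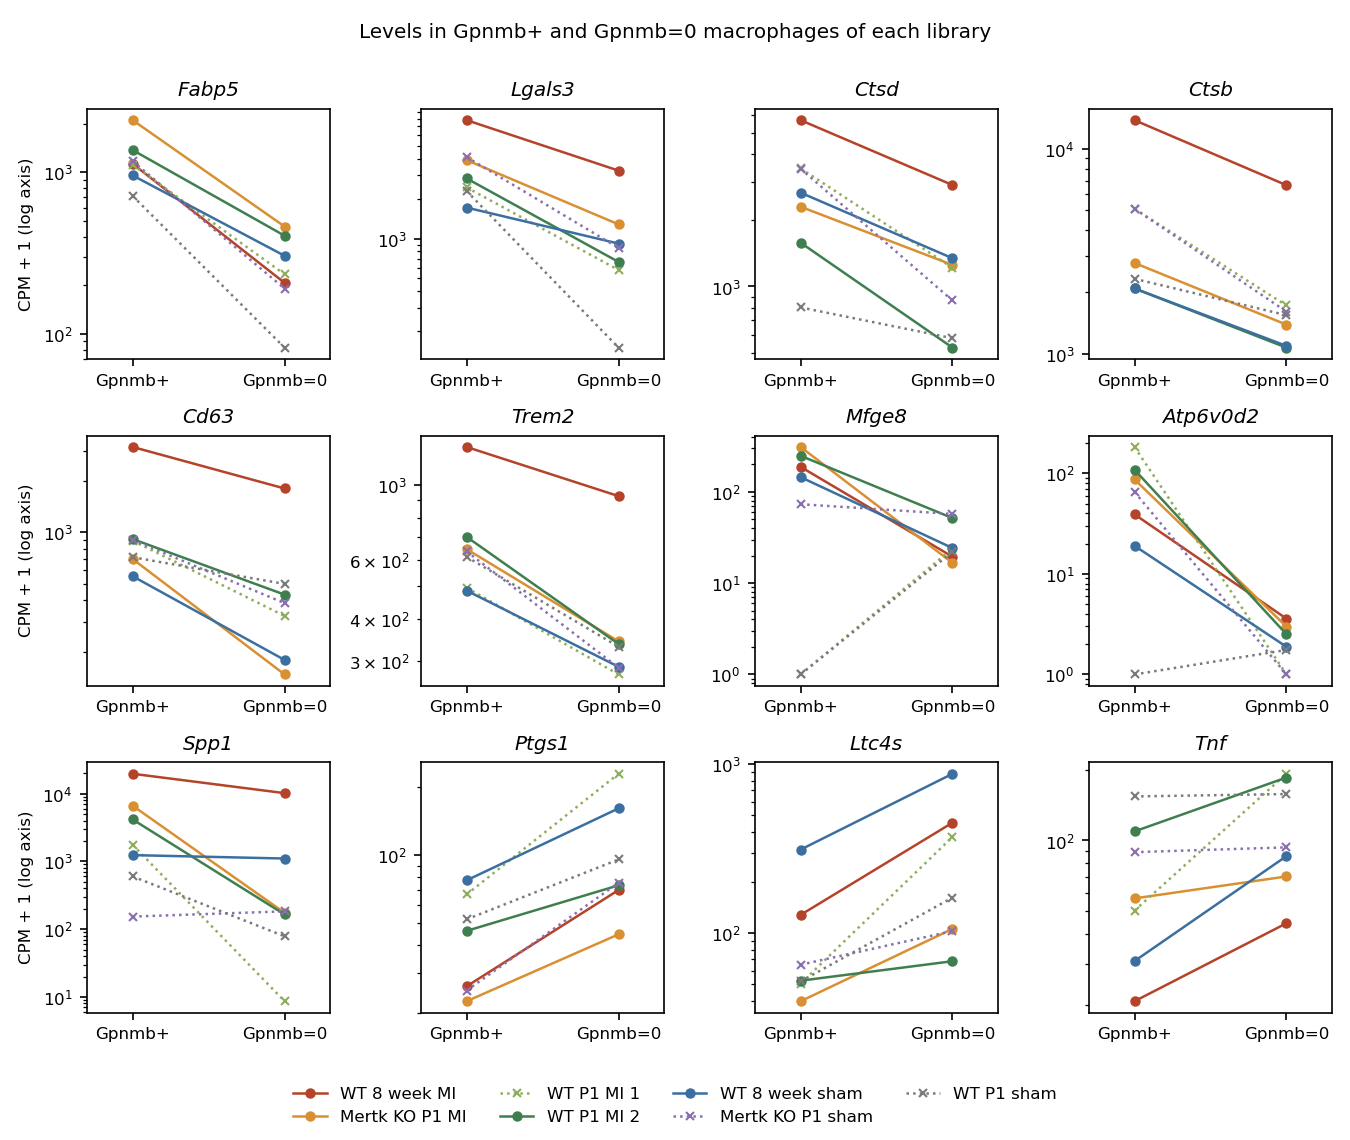
Levels of 12 genes, in CPM plus 1 on a log axis, in Gpnmb+ (left) and Gpnmb=0 (right) macrophages of each library. Circles and solid lines mark the 4 libraries of the paired test, crosses and dotted lines those with 4 or 8 Gpnmb+ cells. Fabp5, Lgals3, Ctsd, Ctsb, Cd63 and Trem2 lie higher on the left in every library, and Ptgs1, Ltc4s and Tnf lie lower.

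The promoters of 3 of these genes are shown because lysosomal genes share a known short promoter element, the CLEAR element bound by TFEB and its relatives, whose core is CACGTG. The 250 bases before each start site, from RefSeq on GRCm38.p6, are Gpnmb at chr6:49036268-49036517 (plus strand), Ctsd at chr7:142387828-142388077 (minus strand) and Nceh1 at chr3:27182754-27183003 (plus strand), written 5′ to 3′ on the strand of the gene with CACGTG in capitals.
Gpnmb: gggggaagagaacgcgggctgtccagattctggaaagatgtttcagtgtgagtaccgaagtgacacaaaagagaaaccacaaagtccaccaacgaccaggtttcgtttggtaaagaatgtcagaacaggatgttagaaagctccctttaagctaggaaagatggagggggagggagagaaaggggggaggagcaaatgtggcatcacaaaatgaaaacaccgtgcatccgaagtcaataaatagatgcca
Ctsd: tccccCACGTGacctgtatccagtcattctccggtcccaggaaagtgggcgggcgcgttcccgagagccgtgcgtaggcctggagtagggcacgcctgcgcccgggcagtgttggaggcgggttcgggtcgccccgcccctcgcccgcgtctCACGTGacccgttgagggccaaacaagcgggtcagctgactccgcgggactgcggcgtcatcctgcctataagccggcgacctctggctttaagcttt
Nceh1: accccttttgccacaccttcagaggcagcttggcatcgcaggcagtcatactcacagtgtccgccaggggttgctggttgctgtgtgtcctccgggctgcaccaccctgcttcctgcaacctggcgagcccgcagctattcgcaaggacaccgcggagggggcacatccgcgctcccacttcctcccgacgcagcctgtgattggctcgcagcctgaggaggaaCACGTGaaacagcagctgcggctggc
CACGTG, which reads the same on both strands, stood in the window of 4 of 35 higher genes that had an entry (11.4%; Nceh1, Ctsd, Slc27a1 and Amdhd2), in 0 of 20 lower genes, in 10.5% of 7507 tested genes and in 6.86% of all 27025 promoters. The longer TCACGTG, which contains it, stood in 3 of the 35 (8.57%), in 6.33% of tested genes and in 3.58% of all promoters. The shares among higher genes were near those of the tested genes, and the letters are a description of these windows only.

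Lgals3 encodes galectin-3, a secreted lectin linked to fibrosis and to the repair of damaged lysosomes. It was at 7787, 3893, 2423, 2834, 1709, 4107 and 2278 CPM in Gpnmb+ cells, against 3246, 1278, 578, 665, 915, 849 and 149.6 CPM in Gpnmb=0 cells, and rose by 1.49 ± 0.16 on the log2 scale (adjusted p = 0.00187, edgeR). Mmp12 rose by 2.78 ± 0.29 (adjusted p = 0.0014, edgeR), with the 1 member of WT P1 MI replicate 2 at 17386 CPM included. With presumed doublets left out the log2 fold change of Mmp12 was 2.65 and it was not called (adjusted p = 0.0563, edgeR). Igf1, a growth factor for heart muscle and fibroblasts, rose by 1.24 ± 0.15 (adjusted p = 0.0041, edgeR), and it was not called without WT 8 week MI. In the list for matrix and remodelling these 3 of 31 genes rose and Areg, the growth factor amphiregulin, fell by 0.94 ± 0.16 (adjusted p = 0.0231, edgeR). Areg was not called without WT 8 week MI, Mertk KO P1 MI or WT 8 week sham (adjusted p up to 0.115).

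For Spp1 the paired log2 fold change was 2.78 ± 0.85, yet it was not called (adjusted p = 0.254, edgeR), since the difference between the sets ranged widely among libraries. Ms4a7 was not called either (0.85 ± 0.18, adjusted p = 0.0782, edgeR), although it passed without WT P1 MI replicate 2 (adjusted p = 0.0035) and with DESeq2 (adjusted p = 0.0338). Of the 3 tested marker genes beside Gpnmb, Mmp12 alone was called.

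Of 26 tested genes of efferocytosis 2 were higher and none lower, beside 0.459% higher and 0.342% lower over all genes tested. Mfge8, a secreted protein that bridges phosphatidylserine on dying cells to macrophage integrins, was at 187, 309, 0, 247, 144, 72.2 and 0 CPM in Gpnmb+ cells, against 18.5, 15.7, 22.9, 50.6, 23.2, 56.3 and 21.1 CPM in Gpnmb=0 cells. Mfge8 rose by 3.02 ± 0.26 on the log2 scale in the 4 paired libraries (adjusted p = 0.000316, edgeR), and it was not seen in the 8 members of WT P1 MI replicate 1 or the 4 of WT P1 sham. In Mertk KO P1 MI it was at 1918 CPM in the 2 cells with 5 or more Gpnmb UMIs and at 0 CPM in the other members. In WT 8 week sham it was at 28.2, 20.8 and 540 CPM in members with 1, 2 to 4 and 5 or more Gpnmb UMIs. The last class held 16 cells. Mertk itself was not called, with a log2 fold change of 0.20 ± 0.17 (adjusted p = 0.847, edgeR). The other called gene of this list was Lgals3.

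Ftl1, the ferritin light chain that stores iron, was the most abundant of the called genes and was higher in 7 of 7 libraries, at 83236, 19405, 11348, 13165, 9045, 18362 and 11494 CPM in Gpnmb+ cells, against 52411, 11252, 9096, 8262, 5592, 8173 and 9154 CPM in Gpnmb=0 cells. Its log2 fold change of 0.73 ± 0.05 was small and even across the paired libraries (adjusted p = 5.39e-05, edgeR). Near-identical copies such as Ftl1-ps1 share reads with Ftl1, so its level is uncertain. It was the only one of 18 tested genes for iron and haem that was called.

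Further genes named by size of change were Il7r, Gpr137b, Pld3, Vat1 and Fnip2. Il7r, the interleukin-7 receptor subunit, rose by 1.85 ± 0.31 and was higher in 7 of 7 libraries (adjusted p = 0.0212, edgeR). Gpr137b, a lysosomal membrane protein, rose by 1.31 ± 0.19, Pld3, a lysosomal nuclease, by 1.24 ± 0.20, Vat1 by 1.23 ± 0.19 and Fnip2, a partner of folliculin, by 1.23 ± 0.20 (adjusted p = 0.012 to 0.0211, edgeR). All 5 were lost without WT 8 week MI and without Mertk KO P1 MI.

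**Figure D3:**
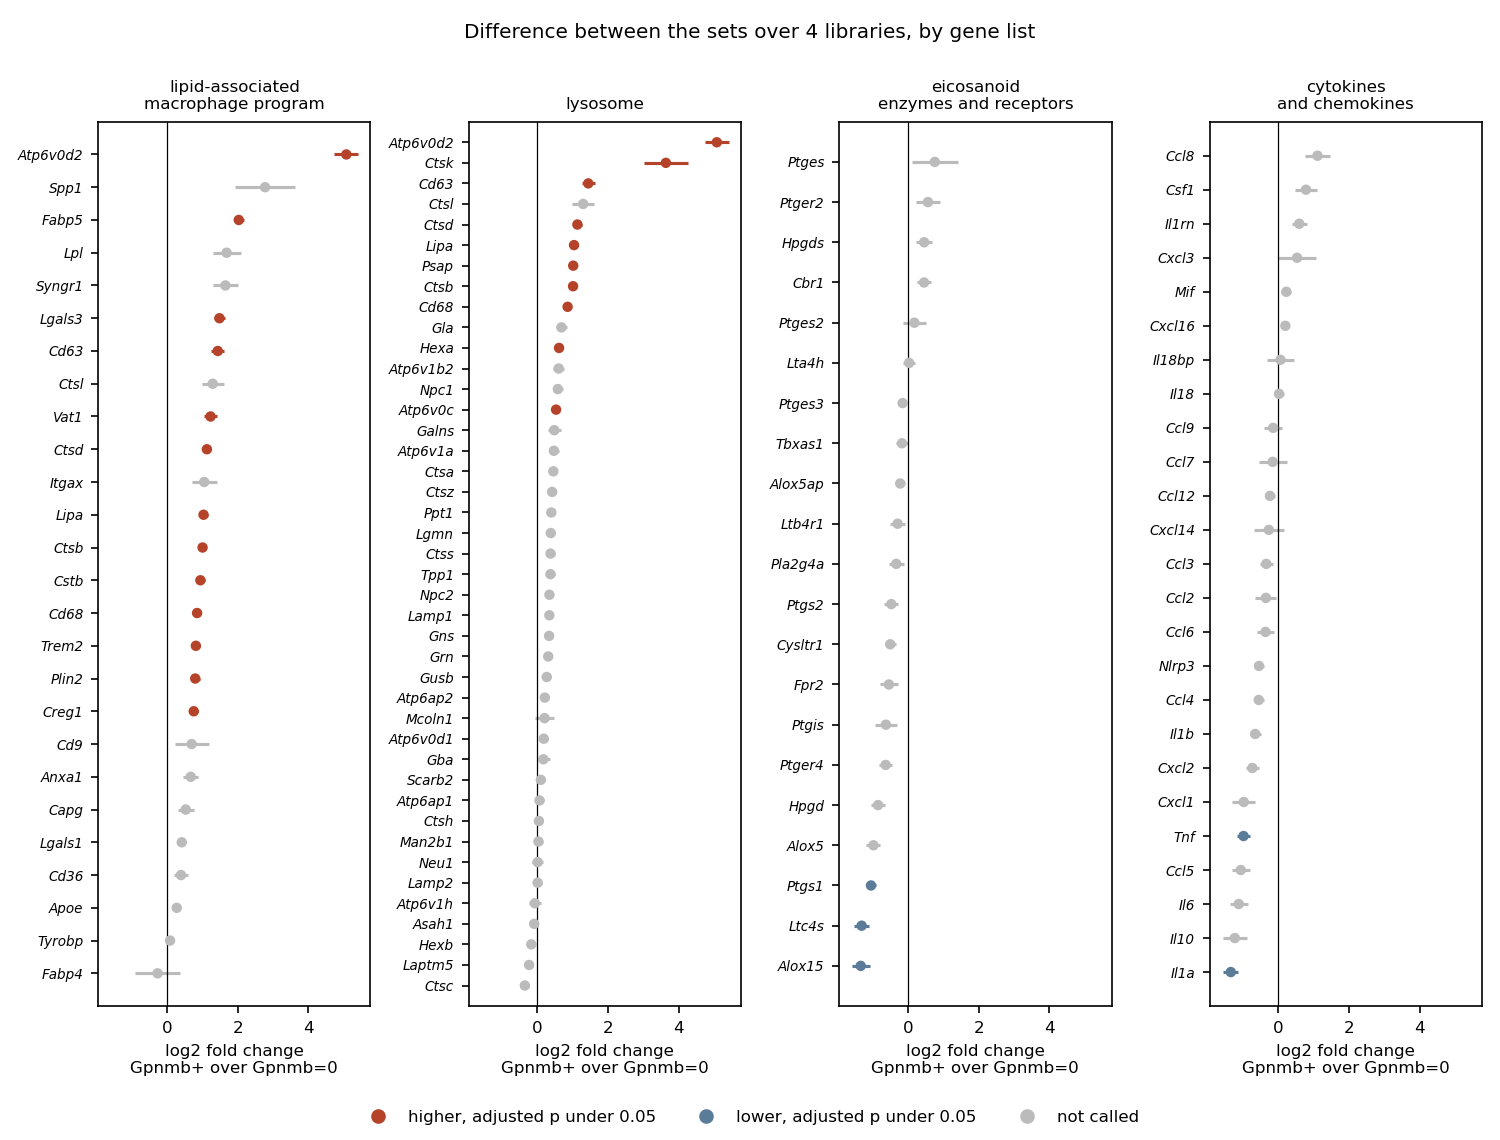
Log2 fold change of Gpnmb+ over Gpnmb=0 macrophages in the 4 paired libraries for the tested genes of 4 lists; bars are ± 1 approximate SE and colours mark the genes called in edgeR. Called genes of the lipid-associated and lysosome lists all lie to the right of 0, and the 3 called eicosanoid genes and 2 called cytokines to the left.

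Of 21 tested genes for enzymes and receptors of eicosanoids, the signalling lipids made from arachidonic acid, 3 fell and none rose, with a median of −0.33. Over all genes tested 0.342% fell and 0.459% rose, with a median of −0.01. Ptgs1, the constitutive cyclooxygenase that starts prostaglandin synthesis, was at 25.2, 21.5, 65.9, 45.1, 76.3, 24.1 and 50.9 CPM in Gpnmb+ cells, against 69.0, 43.5, 229, 72.5, 160.4, 74.4 and 94.7 CPM in Gpnmb=0 cells. It was lower in 7 of 7 libraries and fell by 1.04 ± 0.15 on the log2 scale (adjusted p = 0.0115, edgeR). Ltc4s, leukotriene C4 synthase, was at 127, 38.6, 49.4, 51.4, 312, 64.2 and 50.9 CPM in Gpnmb+ cells, against 450.0, 105, 370.3, 67.4, 877, 102 and 162 CPM in Gpnmb=0 cells. It too was lower in 7 of 7 libraries (fell by 1.31 ± 0.20, adjusted p = 0.0157, edgeR). Alox15, a lipoxygenase, fell by 1.33 ± 0.26 (adjusted p = 0.0482, edgeR), but was at or near 0 in several libraries and averaged 40.4 ± 76.6 CPM in Gpnmb+ cells and 81.0 ± 138 CPM in Gpnmb=0 cells (SD, n = 4 each).

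The 18 other tested genes of the list were not called, and 6 of the 21 had a positive fold change. No gene of the list was called without WT 8 week MI or without WT 8 week sham, 1 was lower without Mertk KO P1 MI, and 5 were lower and 1 higher without WT P1 MI replicate 2. Alox15 was not called by DESeq2 either. With cells matched on depth, 3 fell.

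Genes of inflammatory signals also included members that fell. Il1a, interleukin-1 alpha, fell by 1.34 ± 0.21 (adjusted p = 0.0179, edgeR), and Tnf, the cytokine TNF, fell by 0.98 ± 0.18 and was lower in 7 of 7 libraries (adjusted p = 0.032, edgeR). They were 2 of 25 tested cytokines and chemokines, none rose, and the median was −0.34. Over all genes tested 0.342% fell. The count of cytokines that fell was 0 without WT 8 week MI, 2 without Mertk KO P1 MI, 1 without WT 8 week sham and 8 without WT P1 MI replicate 2. In the last of these fits 133 of 9181 genes fell. The early response genes Egr1, Zfp36 and Ier2, which tissue digestion is known to induce, fell by 0.71 ± 0.12, 0.56 ± 0.10 and 0.60 ± 0.11 among 11 tested genes of that kind (adjusted p = 0.0231 to 0.032, edgeR). They moved with the cytokines, and their part in that result was not tested. None of the 11 was called with cells matched on depth, or without any one of WT 8 week MI, Mertk KO P1 MI and WT 8 week sham.

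Serpinb2, Prg4, Icam2, Tnfsf9 and Cav1 were also among the genes with the largest decreases. Serpinb2, Prg4 (lubricin) and Icam2, which like Alox15 are known from macrophages of serous cavities, fell by 1.34 ± 0.21, 1.32 ± 0.19 and 1.31 ± 0.19 (adjusted p = 0.0115 to 0.0164, edgeR). Prg4 was at 353 CPM in Gpnmb+ cells of WT 8 week sham, against 748 CPM in its Gpnmb=0 cells. In WT 8 week MI it was at 15 CPM in Gpnmb+ cells, against 58.0 CPM in Gpnmb=0 cells, and it was under 7 CPM in either set of the other 2 paired libraries. Without presumed doublets Serpinb2, Prg4, Icam2 and Cav1 were not called. The antibody genes Igkc and Ighm fell by 2.05 ± 0.21 and 1.18 ± 0.14 (adjusted p = 0.00131 and 0.00383, edgeR). Summed B cell markers stood at 377 CPM in Gpnmb+ cells of WT 8 week MI, against 992 CPM in its Gpnmb=0 cells, and once cells with markers of another class were left out neither was called and Igkc changed sign.

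The remaining lists held few or no called genes. Among markers of resident macrophages 1 of 14 tested genes rose (Igf1) and 1 fell (Ltc4s). Among monocyte genes 1 of 19 fell, Chil3. No gene was called among 11 for MHC class II, 19 for the interferon response, 24 for glycolysis and hypoxia, 20 for oxidative phosphorylation or 22 for the cell cycle. Their medians were −0.27, −0.34, −0.03, 0.04 and −0.18, which does not show that their levels were equal. No tested marker of T cells, NK cells, neutrophils, dendritic cells, fibroblasts, endothelial, mural, cardiac muscle or red blood cells was called. With cells matched on depth, 3 of 6 tested fibroblast genes and 1 of 10 MHC class II genes rose, and 3 of 22 cell cycle genes fell. Their medians were then 1.14, −0.10 and −0.70.

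Per cell, medians of UMIs were higher in Gpnmb+ than in Gpnmb=0 cells by 2650 ± 2128 (SD) over the 4 paired libraries, a direction that the rule favours, since deeper cells show Gpnmb more often. Mitochondrial percentages were lower by 0.204 ± 0.138 points in 4 of 4. That had a p of 0.125 in an exact sign-flip permutation test (2-sided), the smallest p that 4 libraries allow, and 0.25 after adjustment over 4 summaries. Matched on depth, mitochondrial percentages had a mean difference of −0.136 ± 0.256 points (SD) and were higher in 2 of 4 libraries (exact permutation p = 0.5). Genes detected at 1500 UMIs were lower by 6 ± 19.2 (SD, n = 4; exact permutation p = 0.875). The percentage of cells with a cell cycle UMI at 1500 UMIs was higher in Gpnmb+ cells in 1 of 4 libraries (mean difference 0.639 ± 7.34 points, SD, n = 4; exact permutation p = 1). Matched on depth it was lower in 4 of 4, by a mean difference of −8.91 points (exact permutation p = 0.125).

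Members differed among themselves with the number of Gpnmb UMIs they held, which is a description since Gpnmb chose them. In WT 8 week MI there were 1148 cells with 0, 220 with 1, 201 with 2 to 4 and 162 with 5 or more Gpnmb UMIs. Fabp5 was at 206, 509, 911 and 1907 CPM over these classes, Lgals3 at 3246, 4691, 6603 and 11760.4 CPM, and Ctsd at 2894, 4111, 5404 and 7464 CPM. All 3 genes climbed at each step, and so did median depth, at 2166, 2492, 2917 and 3774 UMIs. Spp1 was at 10160.4, 12855, 16785 and 28537 CPM and Mmp12 at 133, 279, 510.1 and 1494 CPM. Ptgs1 ran the other way, at 69.0, 40.8, 30.0 and 6.19 CPM, and Ltc4s at 450.0, 248, 90.0 and 54.1 CPM.

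Among the other paired libraries the steps differed by gene. In WT P1 MI replicate 2, Spp1 was at 164, 249.9, 2847 and 10769 CPM and Fabp5 at 404, 293, 781 and 3394 CPM over the same classes, of which the last 3 held 24, 15 and 15 cells. In WT 8 week sham, Spp1 was at 1101, 677, 894 and 2787 CPM with 34, 24 and 16 members. In Mertk KO P1 MI the 2 cells with 5 or more Gpnmb UMIs had Spp1 at 34905 CPM and Fabp5 at 7567 CPM, whereas its 13 members with 1 Gpnmb UMI had 470.1 and 600.3 CPM. A few cells thus carried most of the Spp1 in that library's sum. When 2 Gpnmb UMIs were required, Mertk KO P1 MI held 7 Gpnmb+ cells and dropped out of the paired test. In the remaining paired libraries 42 genes were higher and 35 lower. The WT 8 week MI share of Gpnmb+ cells was then 21.0%.

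**Figure D4:**
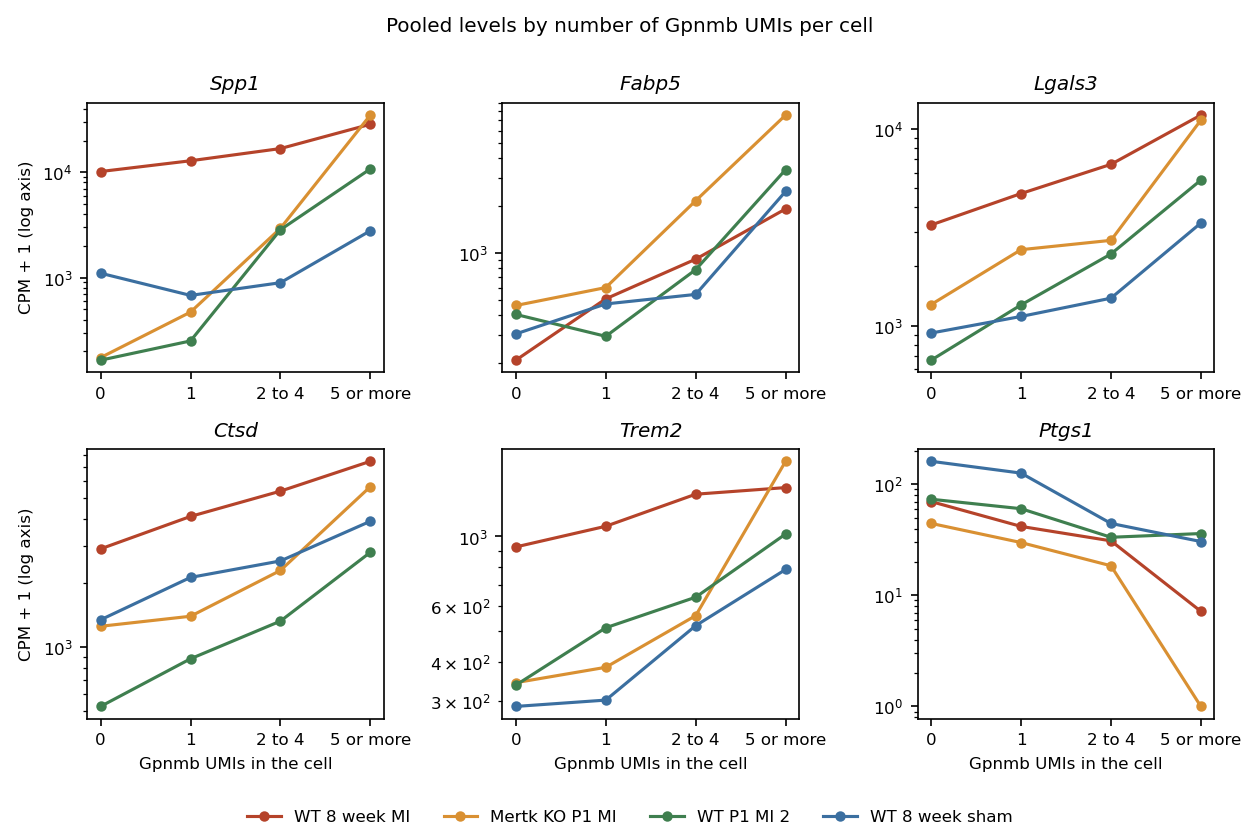
Pooled levels, in CPM plus 1 on a log axis, of 6 genes in cells with 0, 1, 2 to 4 and 5 or more Gpnmb UMIs in the 4 paired libraries. Lgals3, Ctsd and Trem2 climb with Gpnmb in all 4, while Spp1 dips at 1 UMI in WT 8 week sham; the last point of Mertk KO P1 MI rests on 2 cells.

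After thinning to 1500 UMIs, Spp1 was seen in 95.5% of 537 Gpnmb+ cells of WT 8 week MI, with a median of 14 UMIs, and in 90.1% of 887 Gpnmb=0 cells, with a median of 6 UMIs. In WT 8 week sham it was seen in 36.5% of 74 Gpnmb+ cells and 30.1% of 994 Gpnmb=0 cells. Mmp12 was detected in 25.5% of Gpnmb+ cells and 8.34% of Gpnmb=0 cells of WT 8 week MI, and in 2.70% and 1.31% of those of WT 8 week sham. Mmp12 was thus absent from the counts of most members even where its summed level was highest among the paired libraries.

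Just inside and just outside the thresholds of the rule, levels in WT 8 week MI were as follows. The 24 Gpnmb+ cells with 10 to 14 C1q UMIs had Fabp5 at 921 CPM and Lgals3 at 10900.0 CPM, and the 21 with 5 to 9 had 733 and 9182 CPM. The 192 members with 1 resident gene had Spp1 at 24559.5 CPM and Fabp5 at 1384 CPM, and the 35 cells with 2 resident genes, which the rule excluded, had 14784 and 1027 CPM. The 10 members with 0.5 to 1% of S100a8 and S100a9 UMIs had Spp1 at 17660.3 CPM, and the 13 cells with 1 to 2% had 21412 CPM. Where Fabp5 is given, it lay above the 206 CPM of Gpnmb=0 cells on both sides of the threshold.

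Whether the accompaniment of Gpnmb differed in the infarcted 8 week heart was tested as a difference of differences. WT 8 week MI was the only library on its side and was assumed to vary like the others. A lack of calls therefore does not show equal differences. The contrast of Gpnmb+ with Gpnmb=0 cells in WT 8 week MI departed from that in the other 3 paired libraries for 0 of 9366 genes in edgeR (0.0% called), with 188 genes at an unadjusted p under 0.05 and 1 gene called by DESeq2. For Fabp5 the log2 difference of differences was 0.69 ± 0.26, for Ctsb 0.19 ± 0.14 and for Ctsd −0.07 ± 0.28. For Spp1 it was −2.60 ± 1.61 and was not called (adjusted p = 1, edgeR). Leaving out WT P1 MI replicate 2 gave 8 calls and leaving out WT 8 week sham gave 3.

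Infarction and sham operation at 8 weeks could be compared only as 1 library against 1, without a test. Of 3088 genes outside the rule that reached 50 CPM in one of these libraries or the other and 30 UMIs in all, 12.9% were at least 2-fold higher in Gpnmb+ cells of WT 8 week MI and 28.6% at least 2-fold lower, with a median log2 ratio of −0.23. Ms4a7 was at 2934 CPM in members of WT 8 week MI and 168 CPM in those of WT 8 week sham, Spp1 at 19617 and 1236 CPM, and Mmp12 at 778 and 34.8 CPM. Gpnmb=0 cells of the same libraries showed log2 ratios of 5.43 for Ms4a7, 3.21 for Spp1 and 3.64 for Mmp12, beside 4.12, 3.99 and 4.47 in Gpnmb+ cells. These genes were thus higher in the library of the infarcted heart whether or not Gpnmb was seen. Among lysosomal genes 25 of 38 were at least 2-fold higher in Gpnmb+ cells and 19 of 38 in Gpnmb=0 cells, and none was 2-fold lower in either.

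Of 24 genes of the lipid-associated list, 16 were at least 2-fold higher in Gpnmb+ cells of WT 8 week MI and 1 at least 2-fold lower. In Gpnmb=0 cells 11 were higher and 1 lower by that measure. Fabp5 was among those that changed less in Gpnmb+ cells. It was at 1129 CPM in WT 8 week MI members and 956 CPM in WT 8 week sham members, a log2 ratio of 0.24. In Gpnmb=0 cells it was at 206 CPM in WT 8 week MI and 303 CPM in WT 8 week sham. H2-Aa, a chain of MHC class II, was at 562 CPM in Gpnmb+ cells of WT 8 week MI and 2071 CPM in those of WT 8 week sham, while Gpnmb=0 cells had 1779 and 1715 CPM. B cells also express it, and summed B cell markers were at 377 CPM in Gpnmb+ cells of WT 8 week MI and 853 CPM in those of WT 8 week sham, and at 992 and 2028 CPM in Gpnmb=0 cells. Their part in the H2-Aa values was not tested. The chemokine gene Ccl8 was at 592 CPM in WT 8 week MI members and at 0.621 CPM, 1 UMI, in WT 8 week sham members. The 2 libraries also differed in depth and in the version of Cell Ranger given in their headers, and the part of these in the ratios was not tested.

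**Figure D5:**
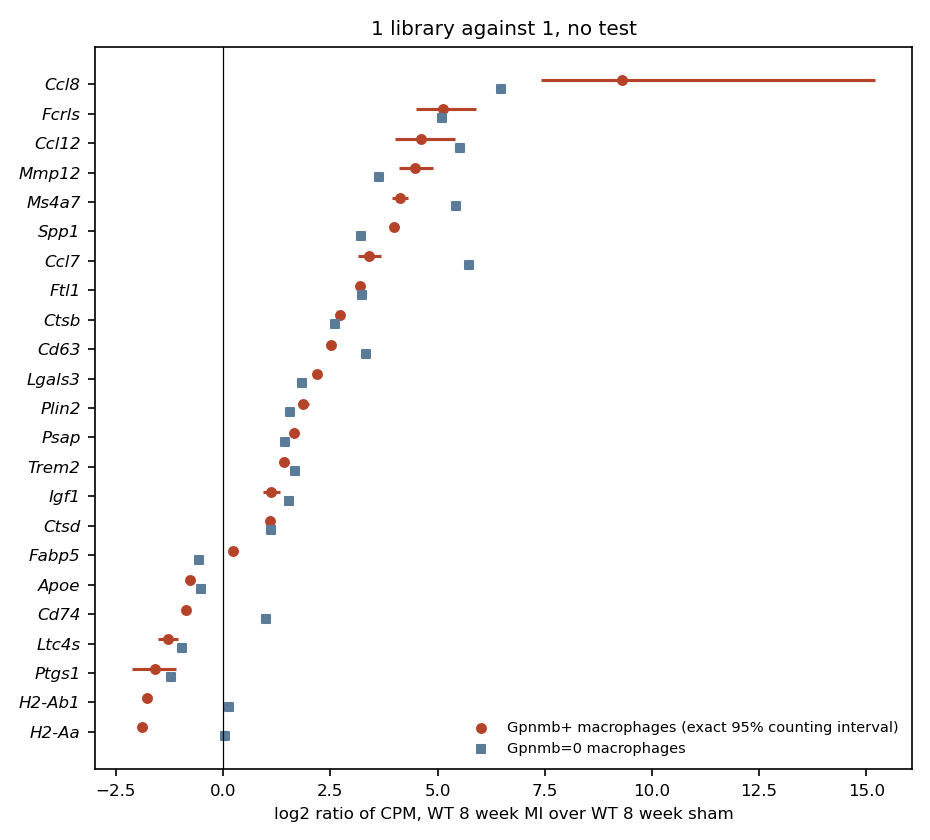
Log2 ratio of CPM in WT 8 week MI over WT 8 week sham for 23 genes, in Gpnmb+ macrophages (circles, with exact 95% intervals for counting error) and Gpnmb=0 macrophages (squares), 1 library each. Spp1, Mmp12 and Ms4a7 lie well above 0 in both sets, whereas H2-Aa and H2-Ab1 lie below 0 in Gpnmb+ cells alone.

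Age after infarction was tested with all 7 libraries. Only 1 residual degree of freedom was left, from the pair of WT P1 MI libraries, and one of these held 8 Gpnmb+ cells. In WT 8 week MI over WT P1 MI, 30 of 4963 genes were higher (0.604%) and 51 lower (1.03%) by at least 2-fold with an adjusted p under 0.05 in edgeR, 1.63% in all. With library totals in place of TMM scaling the split was 20 higher and 73 lower, because the median log2 fold change of all genes shifted to −0.45, beside −0.11. Chemokine genes that draw monocytes were among the higher ones. Ccl7 was at 810.0 CPM in WT 8 week MI members, against 65.9 and 75.8 CPM in the WT P1 MI libraries (log2 fold change 3.82 ± 0.80, adjusted p = 0.000544, edgeR), and Ccl8 at 592 CPM, against 0 and 47.8 CPM (4.49 ± 0.80, adjusted p = 9.68e-06, edgeR). Gpnmb=0 cells likewise had Ccl7 at 1518 CPM in WT 8 week MI, against 379.8 and 236 CPM, and Ccl8 at 325 CPM, against 0 and 9.97 CPM. Chil3, a chitinase-like protein of recruited monocytes, was at 237 CPM, against 0 and 0 CPM (adjusted p = 1.56e-10, edgeR). In Gpnmb=0 cells Chil3 was at 547 CPM in WT 8 week MI and at 971 and 1.21 CPM in the WT P1 MI libraries.

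Several genes lower in the 8 week infarct were high in only 1 of the 2 neonatal libraries. Retnla was at 0 CPM in WT 8 week MI members, against 898 and 0 CPM in WT P1 MI, and Ear2 at 1.61 CPM, against 288 and 7.22 CPM. Marco, a scavenger receptor, was at 6.42 CPM, against 733 and 169.6 CPM (fell by 5.73 ± 1.12, adjusted p = 0.000138, edgeR), and changed direction when cells with 3 or more UMIs of other classes were left out. That alternative kept only 3 and 5 Gpnmb+ cells in the WT P1 MI libraries, beside 446 in WT 8 week MI. Jdp2, a transcriptional repressor, was at 1.07 CPM, against 49.4 and 84.8 CPM (fell by 5.55 ± 1.16, adjusted p = 0.00049, edgeR), and at 2.22 CPM in Gpnmb=0 cells of WT 8 week MI, against 47.7 and 66.9 CPM in those of WT P1 MI. The 4 haemoglobin genes called lower rest on the 1 cell of WT P1 MI replicate 1, and Xist and Ddx3y were also called, with the sex of the animals differing between libraries. Dynlt1b, Nutf2, Coro1b and Polr2l, higher in the 8 week infarct, and Scand1, lower, were at nearly the same levels in Gpnmb=0 cells. Scand1, for instance, was at 2.68 CPM in Gpnmb+ cells of WT 8 week MI, against 173 and 300.5 CPM, and at 4.80 CPM in Gpnmb=0 cells, against 183 and 291 CPM.

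The lipid and lysosome genes that accompanied Gpnmb were mostly not called between ages. Of 26 genes of the lipid-associated list 1 was higher, Syngr1, and of 42 lysosomal genes none was called, although their medians were 1.17 and 0.99 on the log2 scale, beside −0.11 over all genes. Fabp5 had a log2 fold change of 0.19 ± 0.90 (adjusted p = 0.946, edgeR) and Spp1 of 3.06 ± 0.94 (adjusted p = 0.0589, edgeR). With SEs of this size, a p that missed the threshold does not show equal levels. Ptgs1 was at 25.2 CPM in WT 8 week MI members, against 65.9 and 45.1 CPM in WT P1 MI, and was not called (fell by 0.72 ± 0.82, adjusted p = 0.744, edgeR). Of the B cell markers Igkc and Cd79a were called higher in WT 8 week MI, and their part in the other results was not tested. Of the cytokine list 4 of 21 genes were higher, namely Ccl7, Ccl8, Ccl12 and Ccl5, and none lower.

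Between Mertk KO P1 MI, with 20 members, and WT P1 MI, 6 of 4963 genes were higher (0.121%) and 16 lower (0.322%) by the same test, 0.443% in all, and none by DESeq2, which had 51 genes at an unadjusted p under 0.05. Gbp2, an interferon-induced GTPase, was at 189 CPM in Mertk KO P1 MI members, against 8.24 and 11.7 CPM in WT P1 MI (log2 fold change 4.13 ± 0.88, adjusted p = 0.0017, edgeR). Acod1, which makes itaconate, was at 232 CPM, against 0 and 31.6 CPM (3.36 ± 0.78, adjusted p = 0.00717, edgeR), and Ifitm1 at 1614 CPM, against 24.7 and 319 CPM (3.16 ± 0.78, adjusted p = 0.0173, edgeR). In Gpnmb=0 cells Gbp2 was at 238 CPM in Mertk KO P1 MI and at 28.6 and 25.2 CPM in WT P1 MI, and Acod1 at 224 CPM, against 0 and 11.2 CPM. Both genes were thus higher in the macrophages of that library with and without Gpnmb.

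H2-Aa was at 0 CPM in Mertk KO P1 MI members, against 198 and 551 CPM in WT P1 MI (adjusted p = 0.00131, edgeR), and at 203 CPM, against 878 and 643 CPM, in Gpnmb=0 cells. Gas6, the bridging ligand of MERTK, was at 0 CPM, against 189.6 and 36.1 CPM (adjusted p = 0.029, edgeR), and at 7.96 CPM, against 80.2 and 59.5 CPM, in Gpnmb=0 cells. No gene of the lipid-associated or lysosome lists was called, with medians of −0.17 and −0.26 beside −0.09 over all genes. Fabp5 was at 2103 CPM in Mertk KO P1 MI members, against 1113 and 1373 CPM in WT P1 MI, and Trem2 at 644 CPM, against 494 and 700.2 CPM. Called lower in Mertk KO P1 MI were also the fibroblast genes Col3a1 and Col1a2, the T cell gene Trbc2 and the 4 haemoglobin genes of the 1 cell described above, and their part in the other results was not tested. With 1 library of each knockout group, a difference of genotype and a difference between libraries cannot be told apart.

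WT P1 sham held only 4 Gpnmb+ cells, so its contrast with WT P1 MI is a comparison with those cells. By the same test 13 of 4963 genes were higher in WT P1 MI (0.262%) and 3 lower (0.0604%), 0.322% in all, and DESeq2 called 1, with 64 at an unadjusted p under 0.05. Saa3, an acute-phase protein, was at 5307 and 1183 CPM in WT P1 MI members and at 0 CPM in WT P1 sham members (adjusted p = 0.000106, edgeR). Marco was at 733 and 169.6 CPM, against 0 CPM (adjusted p = 0.00985, edgeR), and 4 of the 13 were haemoglobin genes from the 1 cell described above. Inhba, an activin subunit, was lower, at 49.4 and 8.12 CPM in WT P1 MI, against 305 CPM from 24 UMIs in WT P1 sham (adjusted p = 0.0116, edgeR). Mmp12 was called as well, at 24.7 and 480.1 CPM in WT P1 MI members and at 0 CPM in those of WT P1 sham (adjusted p = 0.0419, edgeR). The 480.1 CPM included 1 member at 17386 CPM.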

How the data were processed

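Dissociated hearts were profiled by droplet 3' single-cell RNA sequencing in 7 libraries of 6 groups. The authors deposited raw UMI counts per gene and barcode, made with Cell Ranger 4.0.0 in 5 libraries and 6.1.0 in WT 8 week sham and the replicate 2 library of WT P1 MI, per the file headers, on GRCm38 (mm10), per the submitters' processing notes. A barcode was kept if it had 500 UMIs or more, 300 genes or more and no more than 15% of UMIs from mitochondrial genes. The members and all gene lists were chosen with earlier results of these data known.

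Counts were summed per library and set and tested with edgeR 4.0.16 (R 4.3.3; TMM, quasi-likelihood, Benjamini-Hochberg). The sets of 1 library are cells of the same hearts, so library was the block. Sets needed at least 10 cells. Between libraries that minimum left no residual degree of freedom, so all 7 libraries with at least 4 Gpnmb+ cells were fitted, a choice made after cell numbers were seen; calls there also needed a log2 fold change of at least 1. The paired fit and the fit over all 7 libraries were tested on simulated data. SEs are approximate. Intervals are exact at 95% and cover counting error only. Doublets were kept, and leaving out the highest Scrublet scores (scanpy 1.11.5; 0.8% per 1000 barcodes) was an alternative, as were DESeq2 1.42.0, other scalings and filters, depth matching, thinning and each library left out.

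Named genes were, in the paired test, the 15 largest and 10 smallest changes among called genes of at least 50 CPM with 1 direction in every paired library. Between ages they were the 12 largest and 12 smallest with at least 30 UMIs, and in other contrasts the 5 largest and 5 smallest. Up to 4 called genes per list and Spp1, Mmp12, Ms4a7, Trem2, Fabp5, Lgals3, Ctsd, Abca1, Mertk and Ptgs1 were added; not all are printed, and 1 gene is not reported here. Other genes named to complete a count were chosen after their values were seen. Gene positions are from GENCODE vM21.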

Additional observations from a re-analysis of the deposited data

How the results depend on the processing

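Of 39 named genes called within libraries, 13 were called in every fit that left out 1 library, 11 higher and 2 lower. The 75 genes called within libraries became 423 with no filter on low counts, 133 without the limit on resident genes, 12 with the rule and sums at 1500 UMIs, and 20 to 212 when 1 library was left out. Without the limit on resident genes, WT P1 MI replicate 1 and Mertk KO P1 sham also met the minimum of 10 cells and joined the fit. With the rule and sums at 1500 UMIs, only WT 8 week MI and WT P1 MI replicate 2 met it. These counts therefore rest on other libraries than the 75. Without the replicate block, that is, with the pairing of sets within a library ignored, 0 were called and 72 had an unadjusted p under 0.05. For the difference of differences, 0 became 1 with DESeq2, 24 with no filter and 0 to 8 with 1 library left out. The 81 genes between ages became 44 with DESeq2, 23 without cells with 3 or more UMIs of other classes and 30 at 1500 UMIs. The 22 between genotypes became 0 with DESeq2, 10 with no filter, 12 without those cells and 5 at 1500 UMIs. The 16 between WT P1 MI and WT P1 sham became 1 with DESeq2, 3 with no filter, 10 without cells with 0.2% or more UMIs of another class, 32 with at least 2 Gpnmb UMIs and 5 at 1500 UMIs. With at least 2 Gpnmb UMIs, WT P1 sham held 1 Gpnmb+ cell. Without cells with 3 or more UMIs of other classes, WT 8 week MI kept 446 Gpnmb+ cells and Mertk KO P1 MI 6. The WT P1 MI libraries then kept 3 and 5. Shares after thinning were 28.3, 0.966, 0, 2.70, 1.33, 3.33 and 0%. With at least 2 Gpnmb UMIs WT 8 week MI had 21.0%, Mertk KO P1 MI 1.61%, WT P1 MI replicate 1 9.30% (interval up to 22.1%, which overlaps that of WT 8 week MI), WT P1 MI replicate 2 5.40%, WT 8 week sham 3.72%, Mertk KO P1 sham 4.85% and WT P1 sham 0.725%. Matched on depth, the difference in median UMIs was −145 and that in cells with a cell cycle UMI −8.91 points. Log2 fold changes that changed sign were Igkc (0.10 without cells with 0.2% or more UMIs of another class), Mertk (−0.11 at 1500 UMIs), Marco between ages (4.26 without cells with 3 or more UMIs of other classes) and Ccl5 between genotypes (−6.98 with at least 2 Gpnmb UMIs). Beyond the construction of each alternative, the cause was not tested. The alternatives at 0.2%, those with all 7 libraries, and the 1500 UMI sums for genotype and P1 infarction were chosen after seeing the data.

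No paired analysis was possible because each set of Gpnmb+ cells between ages, genotypes or P1 operations comes from a different library. Leaving out a WT P1 MI replicate left no residual degrees of freedom there, so these fits were not run, nor was a minimum of 20 cells. Within libraries, leaving out cells with 3 or more UMIs of other classes left too few libraries and was not run. The 4 to 20 Gpnmb+ cells of 4 libraries limit every comparison that uses them.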
